A study of Mus musculus with 12 samples.

Results

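The comparison described here is the loss of the transcription factor FOXO1 in mouse cytotoxic T lymphocytes (CTL) kept for 24 h under inhibition of the PI3K catalytic subunit p110δ. It takes the 3 libraries labelled FOXO1-GFP KO + PI3Kdi 24hr and the 3 labelled WT+PI3Kdi 24hr, unpaired and over all 13283 genes of the expression table, which is 6 of the 12 libraries of the series. The other 6 libraries hold the same genotypes with DMSO vehicle in place of the inhibitor, and they enter the fit, where all 12 libraries share one estimate of the spread, and the account of where the genotype difference changed with the drug. WT mice carried GzmB cre alone, and FOXO1-GFP KO mice carried GzmB cre with both alleles of Foxo1 as the floxed FOXO1-GFP fusion. Both groups therefore express Cre from the granzyme B promoter, which is active in T cells once they are activated. All were adult female mice, and T cells from spleen or lymph node were activated for 48 h through CD3 and CD28, expanded with 20 ng/mL of IL-2 plus 2 ng/mL of IL-12, and given 10 µM IC87114 (PI3Kdi). The sort differed between genotypes, because CD8+ KO cells were taken as live and GFP-negative, to hold cells that had lost the fusion protein, whereas WT cells were taken as live and CD8+. The labels call the 3 libraries of a group biological replicates, without saying which came from separate mice, so each p-value measures the spread between libraries. The main fit takes all 12 libraries as independent. Same-numbered vehicle and PI3Kdi libraries of a genotype deviated together (correlation 0.594 to 0.838), so its adjusted p can be too small. Counts with the replicate number as a block, and with the 6 PI3Kdi libraries alone, are therefore given beside the main counts. WT and KO libraries below are those with PI3Kdi unless vehicle is named.

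FOXO1 is a forkhead transcription factor that binds DNA in the nucleus of resting T cells and switches on genes of lymph node homing, survival and memory. AKT, acting downstream of PI3K, phosphorylates FOXO1 and sends it to the cytoplasm, so that blocking p110δ lets FOXO1 return to the nucleus. Deleting FOXO1 in cells whose p110δ is blocked asks which mRNA depend on FOXO1 when that brake is off.

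All 6 libraries had the mRNA of CD8 T cells, with 11 of 11 marker genes (among them Cd8a, Cd3e and Gzmb) in the table and none called different between genotypes. Depth worked out from the whole-read steps of the FPKM values ran from 15.2 to 19.0 M reads in WT and from 17.6 to 30.6 M reads in KO. The libraries did not lie in tight groups. Most of the variance (53.3%) lay on a first principal component that separated WT replicate 1 (37.6) and KO replicate 3 (-33.2) from the other 4 libraries, which lay between -5.59 and 6.75, while on the second (17.4%) WT lay between -16.8 and 2.17 and KO between 0.291 and 14.3, with WT replicate 1 above KO replicate 3. KO replicate 3 also had the highest share of mitochondrial mRNA, 6.80% against 3.22% to 4.53% in the other 5. The short RNA Rn7sk stood at 62.2 and 92.0 FPKM in WT replicates 1 and 2 and at 1.97 to 4.62 FPKM elsewhere, a gene chosen after its values were seen. Counts are therefore given also with WT replicate 1 and KO replicate 3 both left out, an alternative added after seeing the data. Markers of other lineages were few. Of 14 B cell markers 5 had values, with a summed level of 19.9 to 25.8 FPKM in WT and 8.51 to 10.7 FPKM in KO, and the defining markers Cd79a, Ms4a1 and Pax5 had no value here. Of 12 myeloid markers 4 had values, summing to 17.2 to 28.9 FPKM in WT and 22.3 to 27.3 FPKM in KO. The NK cell markers with values, 3 of 6, summed to 112 to 135 FPKM in WT and 136 to 145 FPKM in KO, and nearly all of it was Eomes and Cd160. Of 4 CD4 T cell markers 3 had values, at 7.36 to 7.79 FPKM in all in WT and 4.96 to 7.39 FPKM in KO, and none of the 6 erythroid markers had a value. In bulk samples such as these, fewer cells of a type and less of an mRNA per cell cannot be told apart.

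Foxo1 itself was lower in every KO library. In order of replicate number its level was 10.5, 5.84 and 7.50 FPKM in WT (7.93 ± 2.34, SD, n = 3) and 0.61, 1.06 and 1.75 FPKM in KO (1.14 ± 0.574, SD, n = 3). The groups did not overlap, and the lowest WT library held several times the highest KO library. The log2 fold change was -2.76 (SE 0.39, limma adjusted p = 0.00478), where a fold change is on the scale of log2(FPKM + 0.1). The 162 to 268 Foxo1 reads that remained per KO library cannot be assigned to exons here, and the floxed segment is 1 exon of the gene. The related factors Foxo3 (-0.16, adjusted p = 0.827) and Foxo4 (-0.23, adjusted p = 0.639) were not called.

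With PI3Kdi, 193 of 13283 mRNA differed between genotypes, which is 1.45% of those tested, with a call meaning adjusted p under 0.05 and a fold change over 1.5. Fewer rose than fell in KO CTL: 58 were higher (0.437%) and 135 lower (1.02%). The median log2 fold change of the higher genes was 1.16 and that of the lower genes -1.15, 34 and 89 of them passed a fold of 2, and 4 and 15 a fold of 4. The 3 libraries of one genotype lay apart from the 3 of the other for each of the 193, as they did for 1960 of all genes tested (14.8%; higher in KO for 6.85% and lower for 7.9%). Protein-coding genes made up 51 of the higher and 125 of the lower. An unadjusted p under 0.05 was seen for 1353 genes. With only the 6 PI3Kdi libraries in the fit 94 genes were called, 25 higher and 69 lower. With the replicate number as a block within each genotype, 157 genes were called (1.18%), 51 higher (0.384%) and 106 lower (0.798%), and 43 and 95 of these were among the 58 and 135. Leaving out single libraries gave 117 called genes without WT replicate 3, 124 without KO replicate 2 and 111 without KO replicate 3, and the genes called higher then numbered 29 to 63. Leaving out WT replicate 1 and KO replicate 3 together left 72 called genes, 20 higher and 52 lower, of which 67 were among the 193. All 193 kept their sign there, and 185 kept a fold over 1.5.

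**Figure D1:**
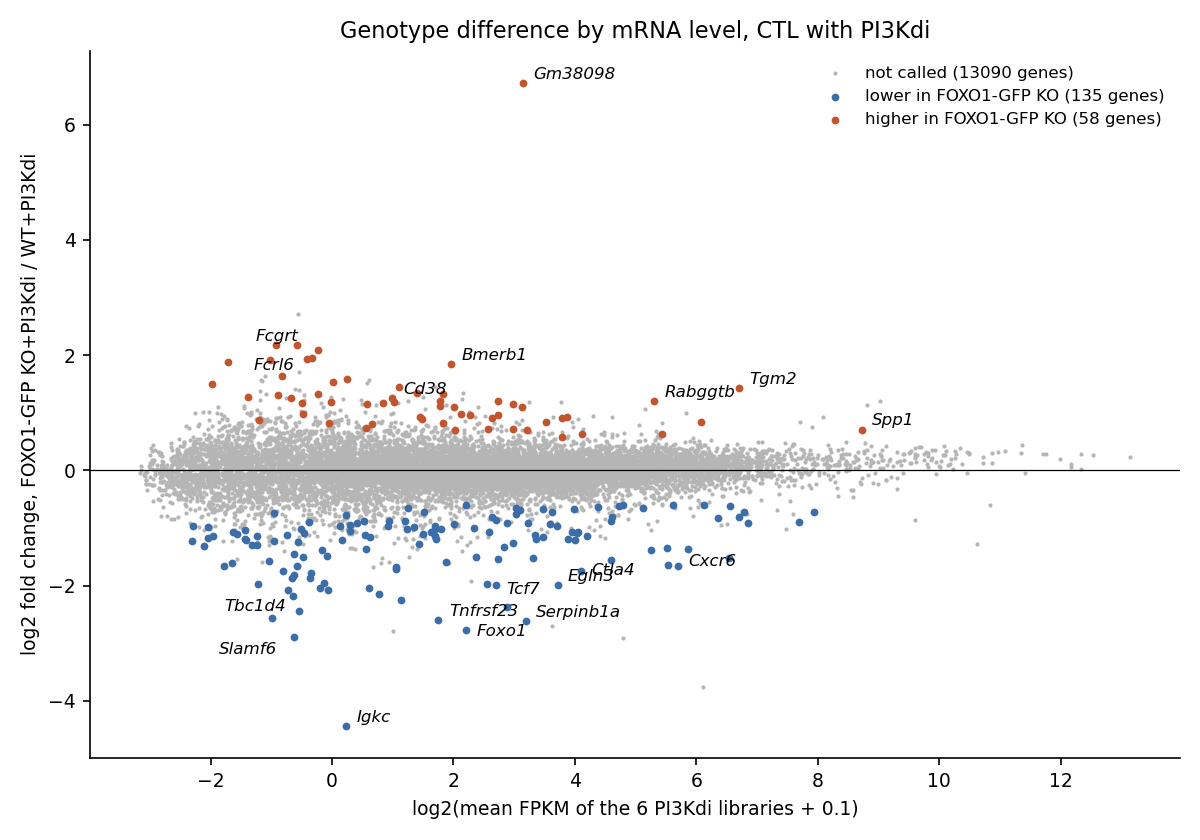
Each point is one of 13283 genes, with the log2 of its mean FPKM + 0.1 over the 6 PI3Kdi libraries on the x axis and the log2 fold change of FOXO1-GFP KO+PI3Kdi over WT+PI3Kdi on the y axis. The 135 lower genes (blue) include Slamf6 at -2.90 and Foxo1 at -2.76, and the 58 higher genes (orange) include Gm38098 at 6.72.

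Genes known as FOXO1 targets in T cells all had negative fold changes, where 6507 of all 13283 genes did. Of the 6, 1 passed the test, where 1.45% of all genes did. Tcf7, which encodes the memory and stemness factor TCF1, measured 14.9, 6.74 and 9.44 FPKM in WT and 2.04, 2.87 and 2.35 FPKM in KO. Each WT library was above each KO library, and the WT values were also the more spread. The log2 fold change was -1.99 (SE 0.31, adjusted p = 0.00905), and without both end libraries it was -1.68 with an adjusted p of 0.0921. Klf2, a factor that drives homing receptor genes, was 3.64, 7.64 and 7.87 FPKM in WT and 2.56, 1.59 and 2.67 FPKM in KO, with a log2 difference of -1.40 and an adjusted p of 0.0659. S1pr1, the receptor with which T cells leave lymph nodes, was 6.96, 4.4 and 5.79 FPKM in WT and 1.63, 3.46 and 2.29 FPKM in KO (-1.22, adjusted p = 0.0659). The libraries of the 2 genotypes did not overlap for Klf2 or S1pr1, yet neither gene was called. Klf2 gained a call without WT replicate 1 (adjusted p = 0.0195) and without both end libraries (-1.89, adjusted p = 0.0373), and S1pr1 without KO replicate 2 (adjusted p = 0.0382), with a pseudocount of 1 FPKM (0.041) and with voom on estimated reads (0.033, and 0.019 with the replicate block). Il7r, the IL-7 receptor chain, overlapped between genotypes (11.9 to 19.2 FPKM in WT, 7.23 to 14.5 FPKM in KO, -0.58, adjusted p = 0.643). The homing receptor gene Ccr7 at -0.16 overlapped too, with an adjusted p of 0.878, and its sign turned without KO replicate 1. The median over the 6 genes was -0.90, beside 0.0061 over all genes tested.

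The promoters of 4 called genes are shown because they hold the FOXO core motif GTAAACA in the 300 bases from 250 before to 50 after a RefSeq gene start. They were searched on both strands, and capitals mark the motif, written TGTTTAC where it lies on the opposite strand. The windows are on GRCm38.p6 and are given 5′ to 3′ along the gene: Tcf7 at chr11:52282546-52282845, minus strand, Sesn1 at chr10:41810324-41810623, plus strand, Il1rl1 at chr1:40439379-40439678, plus strand, and Fcgrt at chr7:45103773-45104072, minus strand. The motif begins 2 bases into the transcript in Tcf7 and at base 23 in Sesn1, and at -117 in Il1rl1 and -116 in Fcgrt. Tcf7, Sesn1 and Il1rl1 each have 2 such windows, of which 1 holds the motif, and Fcgrt has 1.
Tcf7: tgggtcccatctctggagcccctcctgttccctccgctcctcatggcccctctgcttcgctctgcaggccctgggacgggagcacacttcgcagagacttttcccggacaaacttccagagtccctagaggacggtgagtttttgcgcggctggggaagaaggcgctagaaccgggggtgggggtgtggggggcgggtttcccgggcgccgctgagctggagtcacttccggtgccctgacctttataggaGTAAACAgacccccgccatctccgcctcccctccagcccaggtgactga
Sesn1: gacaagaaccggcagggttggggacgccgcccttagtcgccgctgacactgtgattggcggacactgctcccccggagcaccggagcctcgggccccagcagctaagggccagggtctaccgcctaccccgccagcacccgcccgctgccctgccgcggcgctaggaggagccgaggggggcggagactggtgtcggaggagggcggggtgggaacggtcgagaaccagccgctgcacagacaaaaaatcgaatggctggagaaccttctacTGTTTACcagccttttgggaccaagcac
Il1rl1: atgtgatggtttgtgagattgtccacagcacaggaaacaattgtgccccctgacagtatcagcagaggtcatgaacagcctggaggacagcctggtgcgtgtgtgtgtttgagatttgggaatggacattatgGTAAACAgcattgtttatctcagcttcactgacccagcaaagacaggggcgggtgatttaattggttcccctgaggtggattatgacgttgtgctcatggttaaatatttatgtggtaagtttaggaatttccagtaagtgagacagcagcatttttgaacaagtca
Fcgrt: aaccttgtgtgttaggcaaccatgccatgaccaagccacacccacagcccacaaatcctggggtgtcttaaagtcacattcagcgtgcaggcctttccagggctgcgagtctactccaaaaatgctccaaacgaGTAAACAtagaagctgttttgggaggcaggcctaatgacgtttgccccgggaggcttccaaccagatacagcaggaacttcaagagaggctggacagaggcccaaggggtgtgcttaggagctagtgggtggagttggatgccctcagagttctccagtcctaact
The motif was present in 6 of the 97 lower genes with a promoter sequence (6.19%: Cnrip1, Ifi206, Il1rl1, Selenop, Sesn1 and Tcf7) and in 2 of 35 higher genes (5.71%: Fcgrt and Rabggtb). Over all tested genes it was present in 293 of 9623 (3.04%). A gene was counted where any of its windows held the motif. By window the shares were 4.8%, 4.17% and 2.53% in the same order. A match is only a description of these letters, and the absence of one says nothing about binding of FOXO1 elsewhere. Fcgrt and Rabggtb, both higher in KO CTL, hold it as well as the lower genes.

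Among 30 genes known as FOXO targets in other tissues, 27 had values, and Sesn1 was the 1 called, where 1.45% of all genes were. Sesn1, a sestrin that restrains mTORC1 signalling, was 11.6, 8.66 and 10.4 FPKM in WT and 5.54, 6.85 and 5.58 FPKM in KO. The gap between the lowest WT and the highest KO library was small beside the spread (log2 fold change -0.76, adjusted p = 0.0352). The call was lost without WT replicate 1 or 3 or KO replicate 1 or 3 (largest adjusted p 0.137). The cell cycle inhibitor Cdkn1b stood at 9.72 ± 1.78 FPKM in WT and 10.8 ± 3.05 FPKM in KO (SD, n = 3). The median of the 27 was -0.18.

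Transcription factors of CTL fate were mostly not called. Of 17 memory and stemness factors with values 2 were lower, Tcf7 and Aff3, where 1.02% of all genes were. The median of the 17 was -0.16. Aff3, a nuclear factor of the AF4/FMR2 family, was low throughout, at 0.84, 0.45 and 0.48 FPKM in WT and 0.07, 0.06 and 0.08 FPKM in KO. Every KO library held 8 to 14 reads of it against 46 to 106 in WT (-1.98, adjusted p = 0.00262). The call was lost with a pseudocount of 1 FPKM. Of 23 effector factors Stat4 was lower and the median was 0.06. Stat4, which carries the IL-12 signal, was 18.4, 16.1 and 16.7 FPKM in WT and 8.62, 7.71 and 9.91 FPKM in KO, and IL-12 was in these cultures. Its KO libraries lay close together and well below its WT libraries (log2 fold change -0.96, adjusted p = 0.00237). The T-box factor Eomes was 93.0 ± 16.1 FPKM in WT and 94.8 ± 6.62 FPKM in KO (SD, n = 3).

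**Figure D2:**
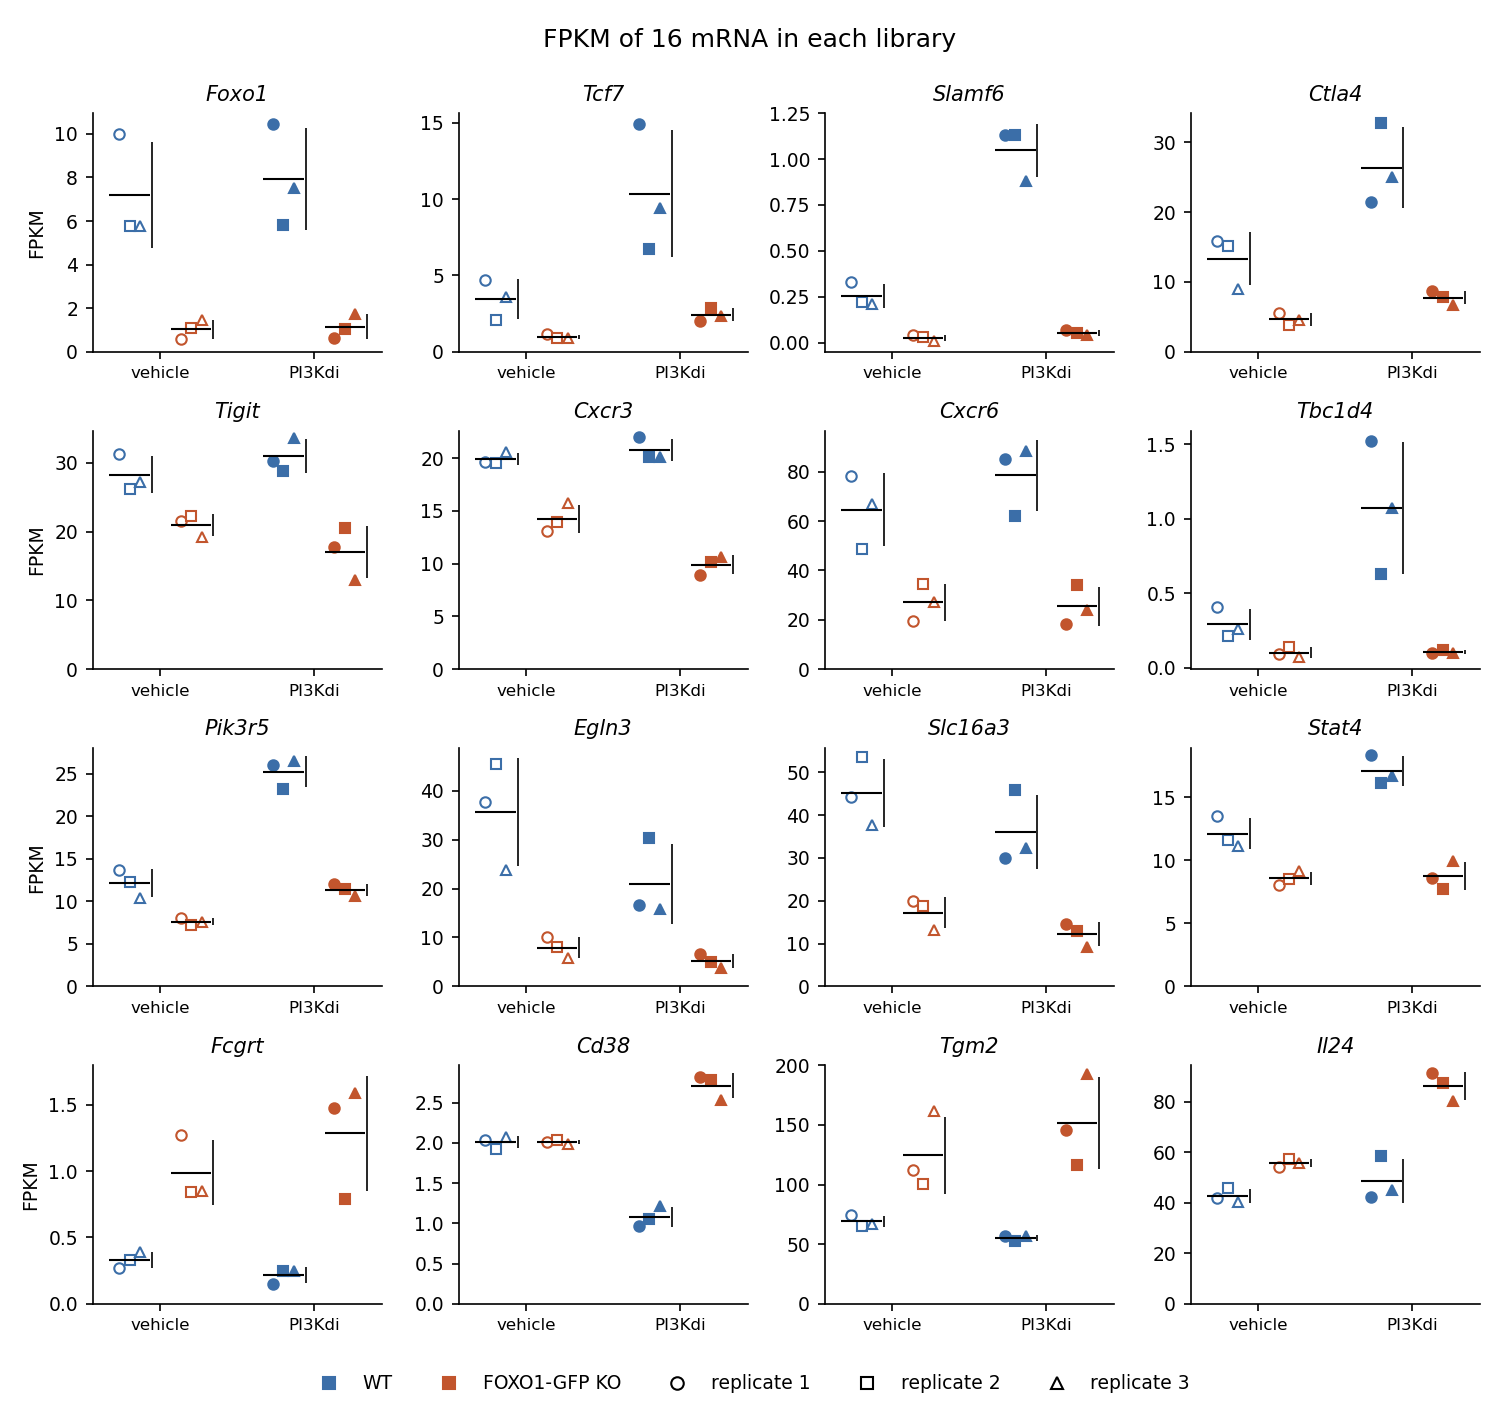
FPKM of 16 named genes in each of the 12 libraries (open, vehicle; filled, PI3Kdi; blue, WT; orange, FOXO1-GFP KO), with the group mean as a horizontal line and ± 1 SD (n = 3) as a vertical line. In the PI3Kdi columns the 3 KO libraries lie apart from the 3 WT libraries for each gene shown, below them for the first 12 and above them for Fcgrt, Cd38, Tgm2 and Il24.

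Of 14 inhibitory receptors 2 were lower, where 1.02% of all genes were, and none was higher. The libraries of the genotypes lay apart for 7 of the 14, where they did for 14.8% of all genes, and fold changes were negative for 7 and positive for 7 (median -0.06, and -0.25 without both end libraries). Ctla4, which outcompetes CD28 for its ligands, was 21.4, 32.7 and 25.0 FPKM in WT and 8.63, 7.83 and 6.76 FPKM in KO. Each KO library was far below each WT library (-1.74, SE 0.23, adjusted p = 0.00295). Tigit, a receptor for nectin-like ligands, was 30.3, 28.9 and 33.7 FPKM in WT and 17.7, 20.5 and 13 FPKM in KO. It was lower in 3 of 3 KO libraries (-0.88, adjusted p = 0.0131), with an adjusted p of 0.0682 without WT replicate 3. The libraries of the genotypes also lay apart, lower in KO without a call, for Lag3 (24.5 to 33.2 FPKM in KO, 35.5 to 47.0 FPKM in WT, adjusted p = 0.11), Pvrig (adjusted p = 0.134), Btla (adjusted p = 0.27) and Cd5 (adjusted p = 0.479). Pdcd1, which encodes PD-1, lay apart in the other direction at 11.1 to 14.1 FPKM in KO and 8.32 to 10.2 FPKM in WT, with an adjusted p of 0.543. The remaining 7 overlapped between genotypes: Havcr2 (TIM-3) at 0.13, Cd160 at 0.63, Vsir at -0.20, Entpd1 at 0.08, Lair1 at 0.07, Cd200r1 at 0.11 and Ceacam1 at 0.22, all as log2 fold changes. The signs of Lair1 and Cd200r1 turned in some alternatives.

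Slamf6 had the smallest adjusted p of all 13283 genes. It encodes Ly108, a SLAM family receptor found on memory-like and stem-like CD8 T cells. Its level was 1.13, 1.13 and 0.88 FPKM in WT and 0.07, 0.05 and 0.04 FPKM in KO, with 147 to 233 reads per WT library and 8 to 23 per KO library. The 3 KO libraries were close to no signal, and the WT libraries were low but well counted (log2 fold change -2.90, SE 0.19, adjusted p = 7.7e-05). The other 9 of the 10 SLAM family members with values were not called. Cd84 (-0.45, adjusted p = 0.339) was lower in every KO library without a call, and Ly9 (-0.35), Cd48 (-0.17), Slamf1 (-0.07), Slamf7 (0.16) and Cd244a (-0.13) overlapped. So did the adaptors Sh2d1a (SAP, -0.23), Sh2d1b1 (0.15) and Sh2d2a (0.15). The signs of Slamf1, Cd244a and Sh2d1b1 turned in some alternatives. Slamf6 lies at chr1:171917515-171953170 on GRCm38.p6, and its uncalled neighbours Cd84, Slamf1 and Cd48 lie in the same gene cluster.

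Of 18 costimulatory and TNF family receptors, 3 were lower, where 1.02% of all genes were, and none higher. All 3 are neighbours on chromosome 7. Tnfrsf22 and Tnfrsf23 encode mouse decoy receptors for TRAIL, and Tnfrsf26 lies beside them. Tnfrsf23 was 5.38, 5.10 and 6.49 FPKM in WT and 0.65, 1.27 and 0.73 FPKM in KO (-2.59, SE 0.28, adjusted p = 0.000963). Tnfrsf22 was 2.68, 2.46 and 2.85 FPKM in WT and 0.57, 0.69 and 0.36 FPKM in KO (-2.14, adjusted p = 0.00201). Tnfrsf26 was 20.9, 19.6 and 20.8 FPKM in WT and 7.77, 9.10 and 9.82 FPKM in KO (-1.2, adjusted p = 0.000831). The WT libraries of all 3 genes were tightly grouped and far above the KO libraries. Reads shared between these related genes could be split by the counting. The list median was -0.14.

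Homing receptors and integrins held 4 lower genes and no higher gene among 35 with values (median -0.24), where 1.02% of all genes were lower. Cxcr3, the receptor for interferon-induced chemokines that guides effector T cells into inflamed tissue, was 22, 20.1 and 20.1 FPKM in WT and 8.88, 10.2 and 10.6 FPKM in KO. Both groups were tight and did not come near each other (-1.06, SE 0.10, adjusted p = 0.000831). Cxcr6, the receptor for CXCL16 on tissue-resident T cells, was 85.4, 62.1 and 88.4 FPKM in WT and 18.3, 33.9 and 24.0 FPKM in KO (-1.65, adjusted p = 0.00949). The KO libraries lay below the WT libraries throughout, and the call was lost without both end libraries (adjusted p = 0.126). Itga7, a laminin-binding integrin chain, had 85 to 115 reads per WT library and 6 to 10 per KO library (-2.57, adjusted p = 0.00249, and 0.146 with the blocked voom fit to estimated reads). Itga2, the collagen-binding integrin chain, was 1.19 ± 0.283 FPKM in WT and 0.390 ± 0.0872 FPKM in KO (SD, n = 3; -1.39, adjusted p = 0.0177), a call lost without WT replicate 1 or 3 or KO replicate 3 (largest adjusted p 0.0797).

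Of 25 cytokine receptor chains with values Il1rl1, the IL-33 receptor ST2 whose promoter is printed above, was the 1 called, at 5.57, 2.98 and 3.92 FPKM in WT and 1.90, 1.95 and 1.75 FPKM in KO (-1.07, adjusted p = 0.0474). WT replicate 1 was the highest, and the call was lost when any library but WT replicate 2 was left out (largest adjusted p 0.166). The libraries of the genotypes lay apart for 6 of the 25, and the median of the list was -0.03. Over all genes 14.8% lay apart and 1.45% were called.

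Of 27 NK cell type and Fc receptors 17 had values, 2 rose and 1 fell (median 0.25), where 0.437% and 1.02% of all genes did. Fcgrt, the neonatal Fc receptor that recycles IgG and albumin, was 0.15, 0.25 and 0.25 FPKM in WT and 1.48, 0.79 and 1.59 FPKM in KO. It had 6 to 8 reads per WT library and 35 to 95 per KO library (2.09, SE 0.27, adjusted p = 0.00262). Fcrl6, an Fc receptor-like protein of cytotoxic lymphocytes, was 0.22, 0.22 and 0.24 FPKM in WT and 1.15, 1.24 and 1.12 FPKM in KO (1.96, SE 0.19, adjusted p = 0.000831). Both were low in every library, and their KO values stood clear of the WT values. Klrb1f, a C-type lectin receptor, fell, from 2.03 ± 0.454 FPKM in WT to 0.720 ± 0.0700 FPKM in KO (SD, n = 3; -1.36, adjusted p = 0.0129), and the call was lost without WT replicate 1 or 3 or KO replicate 1 or 3 (largest adjusted p 0.0636).

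Among 26 cytokines and chemokines with values 3 were higher in KO, where 0.437% of all genes were, and none lower, with a median of 0.07. With the replicate block within genotype 1 was lower as well, Il16, a gene picked out here for that call, at -0.60 (adjusted p = 0.0585 without the block and 0.04 with it). Il24, a cytokine of the IL-10 family, was 42.3, 58.5 and 45.1 FPKM in WT and 91.1, 87.2 and 80.1 FPKM in KO, with every KO library above every WT library (0.84, SE 0.12, adjusted p = 0.00478). Spp1, which encodes osteopontin, was 278, 349 and 336 FPKM in WT and 542, 541 and 484 FPKM in KO (0.71, adjusted p = 0.0332). Fasl, the ligand with which CTL trigger Fas on target cells, was 35.5, 31.4 and 34.0 FPKM in WT and 46.3, 51.4 and 58.9 FPKM in KO (0.63, adjusted p = 0.0435). The calls for Spp1 and Fasl were lost when any 1 of the 6 libraries was left out (largest adjusted p 0.136 and 0.169). The libraries lay apart for Ifng too, without a call, at 13.3 ± 3.14 FPKM in WT and 18.3 ± 2.98 FPKM in KO (SD, n = 3; adjusted p = 0.451).

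Of 21 cytolytic effector genes with values, 1 was higher and 1 lower (median 0.16), where 0.437% and 1.02% of all genes were. With the replicate block within genotype 2 were higher and 1 lower, as Gzmd (1.21, adjusted p = 0.0779 without the block and 0.0344 with it) and Serpinb6b (-0.97, adjusted p = 0.0523 and 0.0361), both picked out for those calls, gained one and Gzmk lost its own. Gzmm (granzyme M) was 3.89, 4.82 and 3.97 FPKM in WT and 8.07, 6.80 and 9.20 FPKM in KO (0.90, adjusted p = 0.0255). Gzmk (granzyme K) was 12.3, 17.8 and 15.7 FPKM in WT and 9.92, 8.26 and 9.34 FPKM in KO (-0.71, adjusted p = 0.044). Both pairs of groups lay apart, but neither call was firm. Gzmm lost it without WT replicate 1 or 3 or KO replicate 1 or 3 (largest adjusted p 0.116), and Gzmk when any library but WT replicate 1 was left out (largest 0.178) and with the replicate block (0.127). The main killing genes were not called. Gzmb, the granzyme whose promoter drives Cre here, was 7317, 9026 and 8571 FPKM in WT and 10955, 10613 and 7891 FPKM in KO (0.23, adjusted p = 0.786), and the perforin gene Prf1 was 297 ± 30.8 and 329 ± 101 FPKM (SD, n = 3; 0.10).

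The PI3K, AKT and mTOR pathway had 38 genes with values, of which 4 were lower, where 1.02% of all genes were, and none higher. Fold changes were negative for 32 of the 38 (median -0.22), where they were for 6507 of all 13283 genes. Foxo1 is one of the 4 and was deleted. Pik3r5, the p101 regulatory subunit of PI3Kγ, was 26.1, 23.2 and 26.5 FPKM in WT and 12, 11.4 and 10.6 FPKM in KO. The groups were tight and well apart (-1.15, SE 0.11, adjusted p = 0.000831). Tbc1d4, a Rab GTPase-activating protein that AKT phosphorylates, was 1.52, 0.63 and 1.07 FPKM in WT and 0.10, 0.12 and 0.10 FPKM in KO (-2.43, SE 0.28, adjusted p = 0.00191). It was near the limit of counting in KO, with 14 to 24 reads per library against 74 to 222 in WT. Trib2, a pseudokinase of the tribbles family, was 0.920 ± 0.171 FPKM in WT and 0.220 ± 0.0346 FPKM in KO (SD, n = 3; -1.66, adjusted p = 0.00237).

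Hypoxia-inducible genes had the most calls of the lists used: 7 of 24 with values were lower in KO, where 1.02% of all genes were, and none was higher. The median was -0.33 with PI3Kdi and -0.56 with vehicle. Fold changes with PI3Kdi were negative for 17 and positive for 7, where 6507 of all 13283 genes were negative. The summed level of the list overlapped, at 752 to 1064 FPKM in WT and 800 to 901 FPKM in KO. Egln3 (PHD3), a prolyl hydroxylase that marks HIF for decay, was 16.7, 30.4 and 15.9 FPKM in WT and 6.60, 4.93 and 3.75 FPKM in KO (-1.99, adjusted p = 0.0092). The WT libraries were spread, and all were above the KO libraries. Without both end libraries the adjusted p was 0.0768. Plod2, which hydroxylates lysines of collagen, was 13.8, 15.1 and 12.5 FPKM in WT and 5.92, 6.45 and 6.45 FPKM in KO (-1.12, adjusted p = 0.00201). P4ha1 and P4ha2, the catalytic chains of collagen prolyl hydroxylase, had log2 fold changes of -1.21 (adjusted p = 0.0128) and -1.87 (adjusted p = 0.0204, and 0.109 with the replicate block). The mitochondrial genes Ak4, an adenylate kinase, Bnip3, a mitophagy receptor, and Pdk1, a kinase that shuts off pyruvate dehydrogenase, fell by 2.04, 0.83 and 0.94 on the log2 scale (adjusted p = 0.0238, 0.0208 and 0.046). Their libraries lay apart between genotypes, but 5 of the 7 calls were lost on leaving out single libraries. P4ha1 and Bnip3 lost theirs without WT replicate 2 or KO replicate 2 or 3, Ak4 without these or WT replicate 1, P4ha2 without WT replicate 2 or 3 or KO replicate 1 or 3, and Pdk1 without any 1 library. The largest adjusted p were 0.0616, 0.0937, 0.112, 0.0913 and 0.181 in that order. Hif1a was not called and differed widely among replicates, at 84.5, 46.2 and 30.8 FPKM in WT and 35.3, 28.4 and 18.9 FPKM in KO (adjusted p = 0.55). Egln1 (PHD2), which was chosen after its values were seen, missed the fold threshold at -0.57 (adjusted p = 0.0464).

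Glycolysis genes lay to the same side, with 19 of 20 below zero (median -0.29), where 6507 of all 13283 genes were. Of the 20, 3 were called lower, where 1.02% of all genes were. The summed level of the list, 4000.5 to 5022 FPKM in WT and 3567 to 4063 FPKM in KO, overlapped. Slc16a3 (MCT4), which exports lactate, was 29.9, 45.9 and 32.2 FPKM in WT and 14.5, 13 and 9.17 FPKM in KO, with each KO library under each WT library (-1.55, SE 0.23, adjusted p = 0.00545). Pfkl, the liver-type phosphofructokinase, fell from 22.2 ± 2.58 to 10.7 ± 2.20 FPKM (SD, n = 3; -1.07, adjusted p = 0.0113). Tpi1, triose phosphate isomerase, fell from 306 ± 42.4 to 185 ± 24.6 FPKM (SD, n = 3; -0.72, adjusted p = 0.044). The call for Pfkl was lost without WT replicate 2 (adjusted p = 0.0568) and that for Tpi1 without any 1 library (largest 0.175). The abundant members Aldoa (-0.07, adjusted p = 0.889) and Ldha (-0.32, adjusted p = 0.563) were not called. Of 24 cholesterol synthesis genes with values 23 were below zero (median -0.48), where 6507 of all 13283 genes were. The list summed to 594, 527 and 496 FPKM in WT and 456, 410 and 305 FPKM in KO, lowest in KO replicate 3. In this list Acat2, the first enzyme of the path from acetyl-CoA, was called. It was 21.1, 19.3 and 26.6 FPKM in WT and 10.5, 10.8 and 9.73 FPKM in KO (-1.09, SE 0.12, adjusted p = 0.00103).

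**Figure D3:**
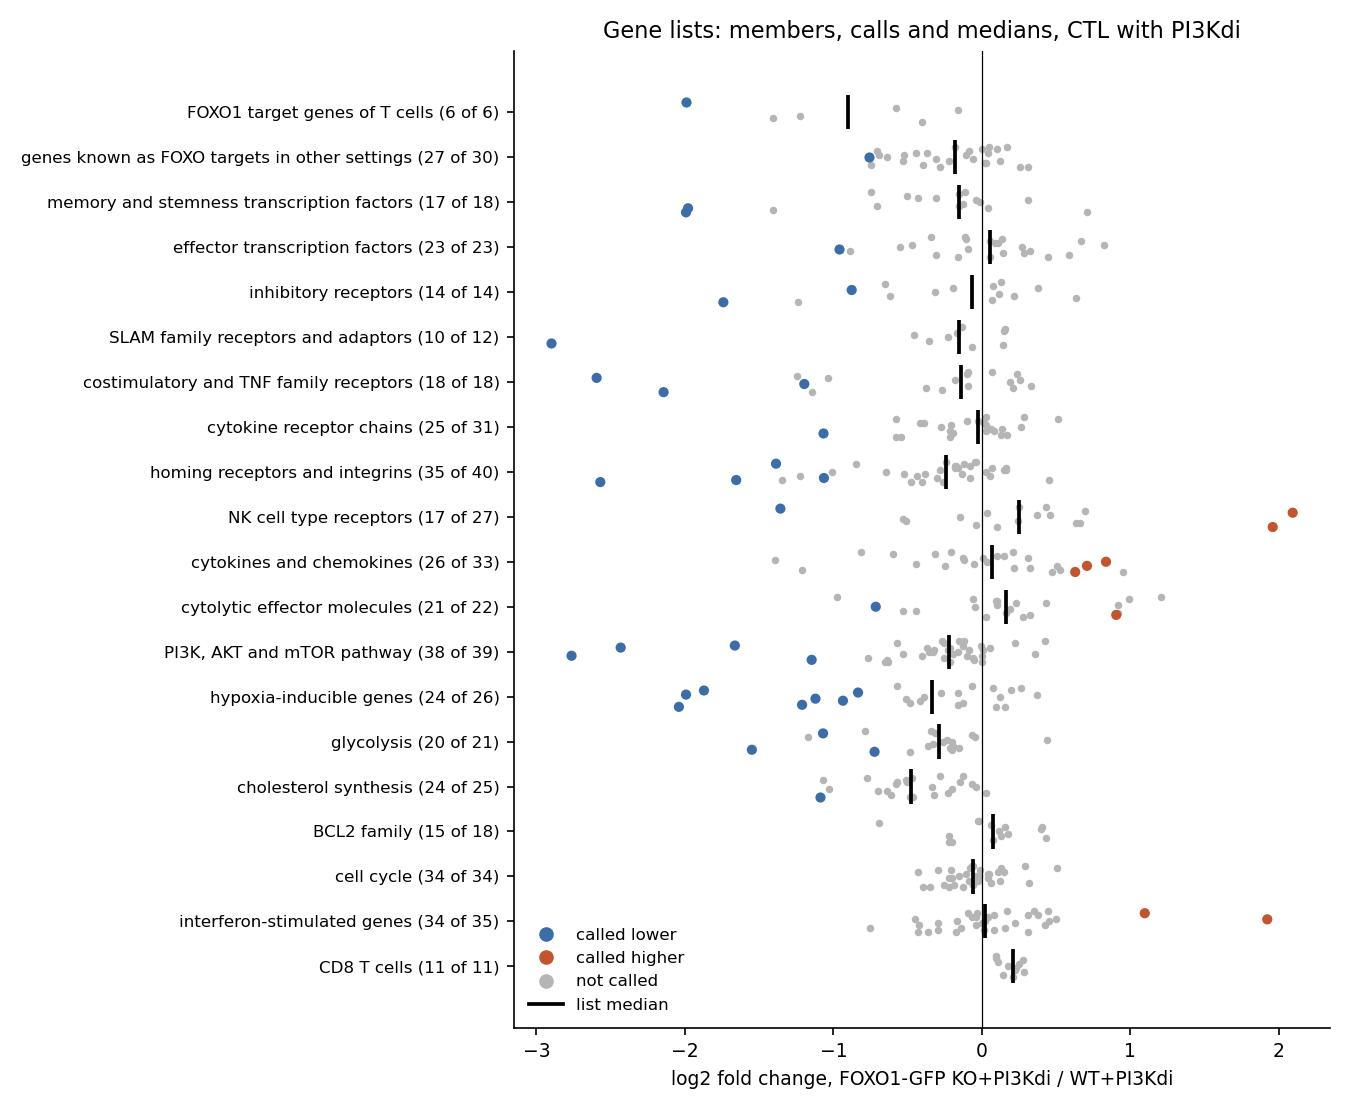
Log2 fold change of FOXO1-GFP KO+PI3Kdi over WT+PI3Kdi for the members of 20 gene lists (members with values of those listed, in parentheses), one point per gene, with called genes in blue (lower) or orange (higher) and the list median as a black bar. The hypoxia-inducible list holds 7 blue points of 24, and the median of cholesterol synthesis lies at -0.48 with 1 blue point.

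Survival and cycling genes gave no call: none of 15 BCL2 family genes (median 0.07) and none of 34 cell cycle genes (median -0.06) passed. Of these, 2 BCL2 family and 4 cell cycle genes had an unadjusted p under 0.05. Bcl2, the survival factor itself, was 58.7 ± 8.06 FPKM in WT and 50.9 ± 2.27 FPKM in KO (SD, n = 3; -0.20). Ccne1 (cyclin E1), named after its values were seen, was higher in every KO library with an adjusted p of 0.0238 but a log2 fold change of 0.51, under the fold threshold. Of 34 interferon-stimulated genes 2 were higher (median 0.02), where 0.437% of all genes were. Usp18, which removes ISG15 from proteins and damps interferon signalling, was 5.29, 5.48 and 5.63 FPKM in WT and 14, 9.96 and 11.8 FPKM in KO (1.10, SE 0.13, adjusted p = 0.00191). Ifitm7 had 2 to 6 reads per WT library and 30 to 40 per KO library (1.92, adjusted p = 0.00262). It lies at chr16:13981699-13986888 on the minus strand and overlaps the start of Bmerb1 at chr16:13986604-14101500 on the plus strand. Bmerb1 was also higher in KO, at 1.47, 2.25 and 1.19 FPKM in WT and 6.13, 5.44 and 6.22 FPKM in KO (1.84, adjusted p = 0.00232), and which strand setting the gene counting used is not given in the sources used here.

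Several of the largest falls were in genes outside these lists. Serpinb1a, an inhibitor of serine proteases, was 11.1, 18.9 and 17.0 FPKM in WT and 2.48, 2.57 and 2.19 FPKM in KO. Its KO libraries were almost equal and far under WT (-2.62, SE 0.22, adjusted p = 0.000655). Arap3, a protein that switches off small GTPases and binds the lipid product of PI3K, fell from 3.49 ± 0.286 to 0.693 ± 0.318 FPKM (SD, n = 3; -2.25, adjusted p = 0.00512, and 0.0686 without both end libraries). Tmem171 (-1.97, adjusted p = 0.0105), the secreted protease gene Prss12 (-1.95, adjusted p = 0.00126) and the cytochrome P450 gene Cyp2s1 (-1.78, adjusted p = 0.00167) were lower in 3 of 3 KO libraries. Mmp9, the gelatinase B gene, fell from 1.28 ± 0.242 to 0.267 ± 0.206 FPKM (SD, n = 3; -2.04, adjusted p = 0.0413), and its call was lost with the replicate block (0.0748) and without any library but KO replicate 2 (largest 0.167).

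Among the largest rises, Tgm2, a transglutaminase that crosslinks proteins, was the most abundant. It was 56.9, 52.5 and 56.5 FPKM in WT and 146, 116 and 193 FPKM in KO, so that the KO libraries varied more than the WT libraries and all lay above them (1.42, SE 0.19, adjusted p = 0.00347). Rabggtb, the catalytic chain of Rab geranylgeranyl transferase, was 19.9, 27.3 and 25.0 FPKM in WT and 55.5, 53.8 and 55.4 FPKM in KO (1.2, adjusted p = 0.00262). Cd38, an ectoenzyme that breaks down NAD, was 0.97, 1.05 and 1.22 FPKM in WT and 2.82, 2.78 and 2.53 FPKM in KO (1.26, SE 0.13, adjusted p = 0.000831). For each of these the KO libraries stood clear of the WT libraries. Bambi, a decoy receptor for TGF-β family ligands, was 0.427 ± 0.166 and 1.39 ± 0.199 FPKM (SD, n = 3; 1.54, adjusted p = 0.00682), and the calcium-dependent kinase gene Camk2b was 0.383 ± 0.0569 and 1.12 ± 0.2 FPKM (SD, n = 3; 1.33, adjusted p = 0.00365). The neighbouring, related genes Khdc1a and Khdc1c rose by 1.2 and 1.34 (adjusted p = 0.0113 and 0.00478), with reads that the counting may have split between them. The remaining rises were Ifitm10 (1.44), Wnt10b, a secreted WNT ligand (1.32), the dynein light chain gene Dynlt1b (1.2), which has near-identical relatives, and the glycine transporter gene Slc6a9 (1.19). All 4 of these calls and that of Khdc1a were lost on leaving out single libraries. Khdc1a lost it without KO replicate 1 or 3 (largest adjusted p 0.0546), Ifitm10 without WT replicate 1 or 2 or KO replicate 2 or 3 (0.0774), and Wnt10b without any library but KO replicate 1 (0.175). Dynlt1b lost it without any library but WT replicate 3 (0.0738), and Slc6a9 without WT replicate 1 or 3 or KO replicate 1 or 2 (0.188).

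The genotype difference with PI3Kdi ran the same way as that with vehicle for each of the 193 genes, counting Cd38 at 0.00. Without PI3Kdi 44 genes were called (0.331%; 9 higher, 0.0678%, and 35 lower, 0.263%), or 8 to 39 when any 1 vehicle library was left out, and 9 of the 58 higher and 32 of the 135 lower genes were among them. The median log2 fold change of the 58 was 0.69 with vehicle beside 1.16 with PI3Kdi, and that of the 135 was -0.73 beside -1.15. The size was larger with PI3Kdi for 57 of 58 and 121 of 135. Since the genes were chosen by their values with PI3Kdi, these counts are a description and not a test. Same-numbered libraries of a genotype also deviated together, so the vehicle libraries are not an independent repeat of the genotype difference. The difference between the 2 genotype effects was tested for each gene over all 12 libraries. No gene was called in limma without a block (0%, smallest adjusted p 0.294, with 200 genes at an unadjusted p under 0.05). With the replicate number as a block within each genotype 3 genes were called (0.0226%, with 1435 genes at an unadjusted p under 0.05), Cd38 in the positive direction (0.00753%) and Slamf6 and Tbc1d4 in the negative (0.0151%). Cd38 was 2.03, 1.92 and 2.07 FPKM in vehicle-treated WT and 2.01, 2.03 and 1.98 FPKM in vehicle-treated KO CTL. The genotypes were therefore level with vehicle and parted with PI3Kdi, through lower WT values and higher KO values (difference 1.26, adjusted p = 0.00105 with the block). Slamf6 was 0.33, 0.22 and 0.21 FPKM in vehicle-treated WT and 0.04, 0.03 and 0.01 FPKM in vehicle-treated KO, a log2 fold change of -1.47 where PI3Kdi gave -2.90 (adjusted p of the difference 0.00813 with the block). Tbc1d4 was 0.41, 0.21 and 0.26 FPKM in vehicle-treated WT and 0.09, 0.14 and 0.07 FPKM in vehicle-treated KO, -0.96 where PI3Kdi gave -2.43 (adjusted p of the difference 0.0272 with the block). For Slamf6 and Tbc1d4 the KO libraries were low under both treatments and the WT libraries were higher with PI3Kdi. In KO, Slamf6 lay below the 0.1 FPKM added before taking logs, and Tbc1d4 lay near it. This addition shrinks a fold change the more, the lower the levels, and vehicle-treated WT levels were the lower ones. The size of both differences therefore depends on it, and its part in them was not tested. Other genes had nearly equal fold changes under both treatments, such as Plod2 (-1.12 with PI3Kdi, -1.25 with vehicle), Egln3 (-1.99 and -2.13), Ak4 (-2.04 and -2.21), Tnfrsf26 (-1.2 and -1.15) and Foxo1 (-2.76 and -2.71).

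**Figure D4:**
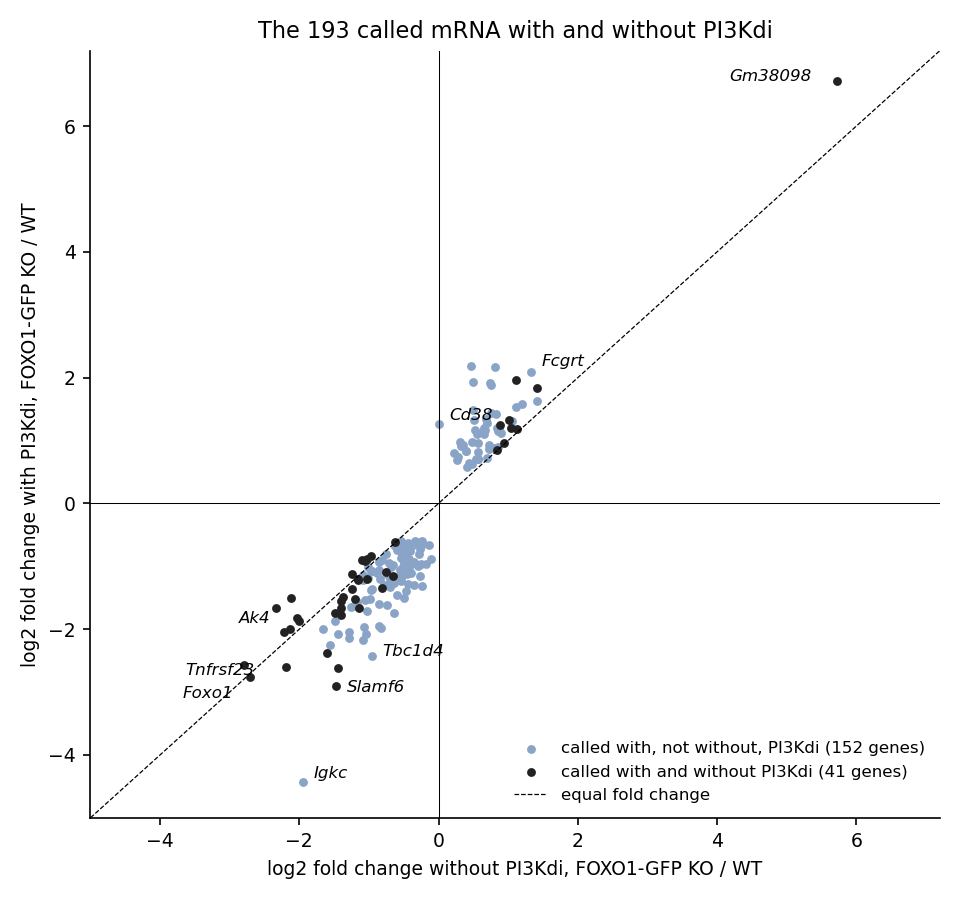
Each point is one of the 193 called genes, with its log2 fold change of FOXO1-GFP KO over WT without PI3Kdi on the x axis and with PI3Kdi on the y axis. The 41 genes called under both treatments are black and the 152 called with PI3Kdi only are blue, and most points lie farther from zero on the y axis than on the x axis (the dashed line marks equal fold changes).

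Some called genes were neighbours. Dividing the tested genes into 530 bins of 5 Mb put no called gene in 387 bins, 1 in 103, 2 in 35 and 3 in 3, with 1 bin of 4 and 1 of 7. Bins named here were picked for their counts. The 7 lie between 170 and 175 Mb of chromosome 1, among 63 tested genes (11.1%), where 1.45% of all genes were called. They are Fcrl6, Slamf6 and 5 genes of the interferon-inducible HIN-200 family of DNA sensors and nuclear regulators. This family was chosen after its values were seen. All 10 of its genes with values had negative fold changes, from Aim2 at -0.03 down, where 6507 of all 13283 genes did. Of these, Ifi203, Ifi204, Ifi206, Ifi209 and Ifi214 were called lower, where 1.02% of all genes were. Ifi209, the most abundant of the 5, was 73.7, 59.7 and 62.5 FPKM in WT and 28.2, 23.7 and 25.0 FPKM in KO (-1.34, adjusted p = 0.000831). The others fell by 0.81 (Ifi203), 1.54 (Ifi204), 0.81 (Ifi206) and 0.90 (Ifi214), with adjusted p between 0.00545 and 0.0238. Members of such a family can share reads. The bin of 4, at 140 to 145 Mb of chromosome 7, holds the Tnfrsf22 cluster and Ifitm10. On chromosome 3 the bin from 150 to 155 Mb holds 3 higher genes among 15 tested (20%), where 0.437% of all genes were higher. They are Rabggtb with Acadm, a fatty acid dehydrogenase, and Tyw3, the latter 2 named after their values were seen. Acadm was 4.47, 4.56 and 4.25 FPKM in WT and 9.06, 8.76 and 8.35 FPKM in KO (0.96, adjusted p = 0.000831), and with vehicle its fold change was 0.94. Tyw3 was 1.14 ± 0.201 and 2.7 ± 0.0889 FPKM (SD, n = 3; 1.19 with PI3Kdi, 1.13 with vehicle). These neighbours were about equally raised in KO under both treatments.

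The neighbourhood of Foxo1, where the floxed allele lies, was counted by distance. Within 20 Mb of Foxo1 on chromosome 3 (chr3:52268336-52353221) 120 genes were tested, 3 were higher and 2 lower (4.17%), and within 5 Mb 29 genes gave 1 higher and 1 lower (6.9%), the lower being Foxo1. Over all genes tested 1.45% were called. Within 40 Mb 283 genes gave 3 higher and 3 lower (2.12%), and on the whole of chromosome 3 the share was 1.93%. The deleted gene Foxo1 is counted in each of these shares. Gm38098, a predicted gene at chr3:52425408-52425648 on the plus strand beyond the end of Foxo1, had 0 or 1 read per WT library and 57 to 114 reads per KO library. Against a floor of 3 reads in each WT library it was at least 22.9-fold higher in KO, and the fitted log2 fold change of 6.72 (adjusted p = 0.000831) was 5.73 with vehicle. It was absent or nearly so in WT and present in all 3 KO libraries. P2ry13, a gene for a G protein-coupled receptor of ADP, rose from 1.02 ± 0.365 to 2.34 ± 0.133 FPKM (SD, n = 3; 1.17, adjusted p = 0.0129). Its call was lost without WT replicate 3 or KO replicate 2 or 3 (largest adjusted p 0.0635). Spry1, an inhibitor of receptor tyrosine kinase signalling, fell from 17 to 19 reads per WT library to 3 to 5 per KO library (-1.61, adjusted p = 0.000831), a call lost with a pseudocount of 1 FPKM.

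**Figure D5:**
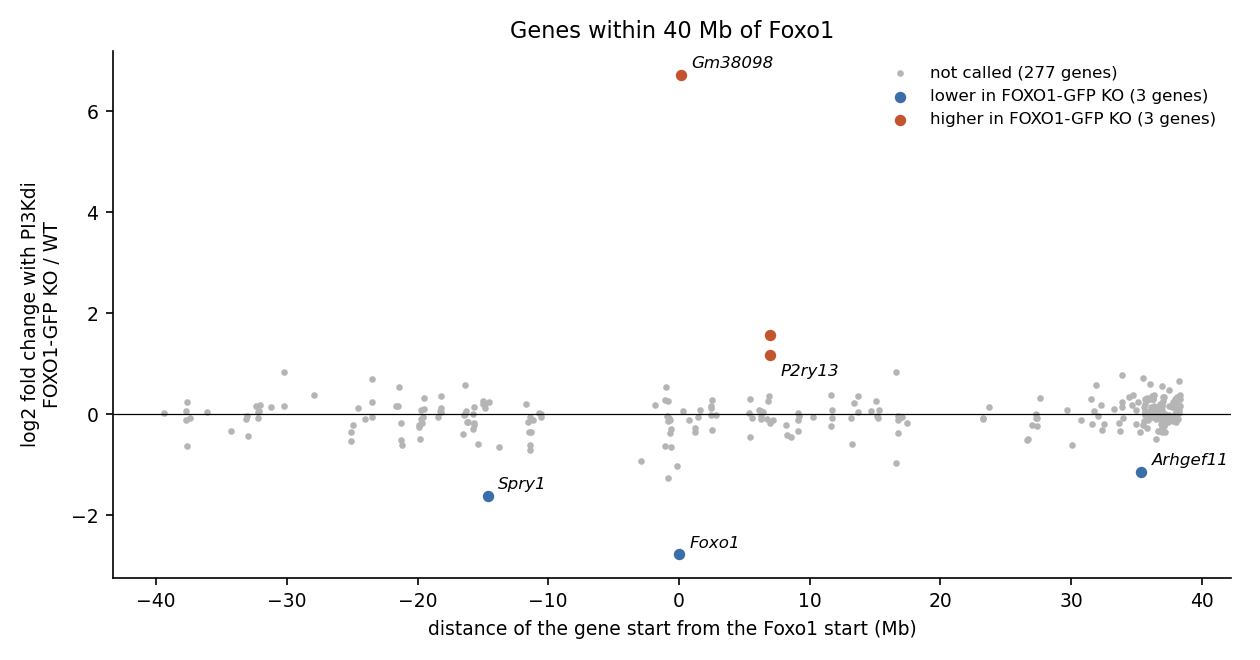
Log2 fold change of FOXO1-GFP KO+PI3Kdi over WT+PI3Kdi (y axis) against the distance of each gene start from the Foxo1 start in Mb (x axis), for the 283 genes tested within 40 Mb. Of these, 277 are not called (grey), and Gm38098 at 6.72 and Foxo1 at -2.76 lie next to each other at the centre.

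B cell transcripts were the one marker group of another lineage with called members. Ighm, the IgM heavy chain gene, was 11.1, 13 and 12.8 FPKM in WT and 1.64, 2.26 and 3.15 FPKM in KO (-2.38, adjusted p = 0.000831). Igkc, the kappa light chain gene, had 14 to 23 reads per WT library and none in any KO library, and was at least 8.33-fold lower against a floor of 3 reads in each KO library (adjusted p = 0.00249). The other members of the B cell list with values, Cd79b (-0.28) and the antigen presentation genes Cd74 (0.47) and H2-Ab1 (-0.63), were not called. Sorting differed between the genotypes, as given above, and the part of it in these values was not tested.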

How the data were processed

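RNA from sorted CTL was made into stranded paired-end libraries that shared 1 sequencing lane. Per the submitters' processing notes reads were aligned with STAR (2.7.1a) to GRCm38.p6. The authors removed genes of low count with edgeR, scaled libraries by TMM and deposited FPKM per gene, so the values are not counts. Gene names came from the deposited table, and promoter windows from RefSeq (GRCm38.p6). Genome coordinates and exon lengths came from the GENCODE mouse annotation, matched by gene identifier for 13276 of 13283 genes. Here log2(FPKM + 0.1) of all 12 libraries was fitted in limma (3.58.1, R 4.3.3) with a mean of each group and an intensity trend, in place of the voom fit to counts first planned. Adjusted p-values are Benjamini-Hochberg over 13283 genes. The comparison and the gene lists were chosen with earlier results of these data known. Named genes are Foxo1, the 15 largest rises and falls among called genes that average 1 FPKM or more in a group, called genes of each list, all FOXO1-target, inhibitory receptor and SLAM family genes, the most abundant uncalled members of other lists, called genes within 20 Mb of Foxo1 and genes whose genotype effect differed with the drug. Some genes under this rule are not reported here. Depth (12.9 to 48.0 M reads over the 12 libraries) was recovered from whole-read steps in the FPKM, and "reads" are such estimates. Same-numbered libraries deviated together within a genotype (correlation 0.594 to 0.838) but not across genotypes (-0.316 to 0.508 with PI3Kdi), so the number was used as a block within genotype only, as an alternative. In a test on simulated data for the comparison with PI3Kdi, 93% of 200 genes changed by 2 on the log2 scale were recovered of 13283, with 11 unchanged genes called. With the replicate block within genotype 95.5% were recovered, with 5 unchanged genes called. The changed genes were drawn from the more abundant ones. Of the called genes 4 higher and 15 lower passed a fold of 4, and recovery of smaller changes was not tested.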

Additional observations from a re-analysis of the deposited data

Results flagged for a closer look

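In limma with the replicate number as a block within each genotype, the genotype effect with PI3Kdi differed from that with vehicle for 3 genes. The difference in log2 fold change, PI3Kdi minus vehicle, was 1.26 for Cd38, -1.43 for Slamf6 and -1.47 for Tbc1d4. Cd38 was higher in KO with PI3Kdi and level between genotypes with vehicle, and Slamf6 and Tbc1d4 were lower in KO under both treatments and more so with PI3Kdi. Without the block none of the 3 passed, and the smallest adjusted p over all genes was 0.294. Groups of 3 libraries were too small to be searched for outlying values.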

How the results depend on the processing

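The fold change of Foxo1 was called in every alternative run and lay between -3.11 and -2.41 on leaving out single libraries. The number of genes called between genotypes with PI3Kdi (193, of which 58 higher and 135 lower) was 111 (33 and 78) over genes averaging 1 FPKM or more, 94 (25 and 69) with only the 6 libraries in the fit, 123 (34 and 89) at a fold over 2, and 72 (20 and 52) without WT replicate 1 and KO replicate 3. Leaving out single libraries gave 111 to 196 in all, 29 to 63 higher and 78 to 138 lower, the fewest without KO replicate 3. The replicate number as a block within genotype gave 157, and as a block shared by all groups, whose numbers do not pair across genotypes, 438 (145 and 293). Without PI3Kdi the 44 called genes became 165 with that shared block, 8 to 39 without single libraries and 0 in a limma fit of the 6 vehicle libraries, where 786 genes had an unadjusted p under 0.05, and voom on estimated reads gave 54. The difference between genotype effects, 0 in limma without a block, was called for 3 genes with the block within genotype and 13 with voom and that block, and for 0 to 0 on leaving out single libraries. The cause of these changes was not tested, apart from fewer samples or genes where an alternative leaves them out.

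Of 64 named genes called, 28 kept their call in up to 17 alternatives and 36 lost it in at least 1. With only the 6 libraries in the fit the genes that lost their call included Ak4, Bambi, Bnip3, Fasl, Gzmk, Gzmm, Il1rl1, Il24, Itga2, Khdc1a, Mmp9, P2ry13, P4ha2, Pdk1, Sesn1, Slc6a9, Spp1, Tigit, Tpi1 and Wnt10b. In limma the block within genotype took the call from Gzmk, Mmp9 and P4ha2, and voom with that block took it from these and from Dynlt1b, Gzmm, Ifitm7, Itga7, Slc6a9, Trib2 and Wnt10b. Of the uncalled named genes Klf2 gained a call in 3 alternatives, S1pr1 in 5, and Pvrig without WT replicate 2 (0.0435). The block shared by all groups gave calls to Cd160, Klf2, Lag3, Pvrig and S1pr1. Signs turned only for uncalled genes. On leaving out single libraries Ccr7 ranged from -0.31 to 0.12 (without KO replicate 1), Lair1 from -0.063 (without KO replicate 1) to 0.29, and -0.024 without KO replicate 2. Cd244a ranged from -0.35 to 0.24 (without KO replicate 3) and was 0.27 without both end libraries. Cd200r1 ranged from -0.19 (without WT replicate 2) to 0.41, with -0.12 without KO replicate 2, and was -0.024 with voom and the block. Slamf1 ranged from -0.19 to 0.0062 (without WT replicate 2) and Sh2d1b1 from -0.15 (without WT replicate 1) to 0.34. Depth limits genes under about 10 reads in a library, and reads recovered from FPKM cover counting error only.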
